A study of Homo sapiens with 48 samples.

Results

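SF3B1, the protein targeted by siRNA in these cells, works inside the U2 small nuclear ribonucleoprotein (U2 snRNP) together with the other subunits of SF3a and SF3b. The genes described here are the 3 SF3a subunits SF3A1, SF3A2 and SF3A3 and the 6 SF3b partners SF3B2, SF3B3, SF3B4, SF3B5, SF3B14 (now SF3B6) and PHF5A. They were taken by name from the gene table, which lists 19847 genes, with all of their splicing events. Of the 9 genes, 8 were found by name and 1, SF3B14, by its gene identifier ENSG00000115128, because the table lists that identifier under AC008073.5. All 9 belonged to the 9991 genes that were tested, those whose counts summed to 10000 or more, and 172 splicing events were annotated to them.

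The RNA came from IMR90 ER:RAS cells, human lung fibroblasts in which oncogenic RAS is fused to the oestrogen receptor, so that 4-hydroxytamoxifen (4OHT) switches RAS signalling on and the cells enter senescence. Cells of this 1 fibroblast strain received 4OHT or its solvent DMSO for 6 days, were transfected with siRNAs and were harvested 2 days later in 0.5% serum. The 6 groups were DMSO siNT, DMSO siSF3B1, DMSO siRBM39, 4OHT siNT, 4OHT siSF3B1 and 4OHT siRBM39, with 8 libraries each. All of them carry the ER:RAS fusion, the DMSO controls included. Every target was represented by 2 siRNAs with 4 replicates each (siNT1 and siNT2, siSF3B1-13 and siSF3B1-16, siRBM39-06 and siRBM39-08), and each group pools its pair. The study's methods state fewer replicates for its knockdown sequencing than the 4 per siRNA in these labels. In each treatment the 8 siNT libraries served as controls for both knockdowns, so the comparisons with siNT are not independent of each other. The labels do not say whether replicates came from separate cultures, while the study's methods describe the replicates of its cell culture work in general as independent experiments. The p-values measure the spread between these libraries.

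During splicing, U2 snRNP recognises the branch site upstream of a 3′ splice site. SF3a, a trimer, joins SF3b to the U2 particle. In SF3b, PHF5A and SF3B1 form the pocket that holds the branch adenosine, SF3B14 (also called p14) lies close to it, SF3B3 is the large scaffold, SF3B2 and the RNA-binding protein SF3B4 bind each other, and SF3B5 is a small subunit packed against SF3B3. SF3b is also part of the U11/U12 particle of the minor spliceosome, and SF3B3 and SF3B5 are also subunits of the SAGA histone acetyltransferase complex. RBM39, the other siRNA target, is a splicing factor related to the U2AF proteins that select 3′ splice sites.

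Libraries held between 31467221 and 52734636 gene counts, and single libraries gave the 9 genes between 707 (PHF5A) and 15742 (SF3B2) counts. SF3B1 mRNA was 356 ± 25.3 CPM (counts scaled to the effective library total; mean ± SD, n = 8 here and below) in DMSO siNT and 32.6 ± 1.56 in DMSO siSF3B1, and 326 ± 8.21 against 27.1 ± 1.89 in 4OHT. RBM39 fell from 169 ± 9.71 to 27.2 ± 2.16 CPM with siRBM39 in DMSO and from 119 ± 4.29 to 16.2 ± 1.72 in 4OHT. Each target was also higher after knockdown of the other, at an adjusted p under 0.05 by edgeR. RBM39 rose 1.78-fold in DMSO and 2.08-fold in 4OHT with siSF3B1, and SF3B1 rose 1.37-fold and 1.23-fold with siRBM39. With 4OHT in siNT cells, LMNB1 (lamin B1, lost in senescence) was 3.39 ± 0.512 CPM against 18.8 ± 1.77 and IL1B was 3159 ± 268 against 0.285 ± 0.108. The 8 fibroblast markers summed to between 24997 and 85969 CPM in every library, and those of epithelium, endothelium and blood to at most 81.9, 7.93 and 1.06. 2 libraries stood apart from the other replicates of their siRNA, at 8.21 times (4OHT siRBM39-08 replicate 4, which also held the highest epithelial sum) and 3.75 times (DMSO siRBM39-06 replicate 1) the median distance. Main values include both, and for the 9 genes values without them are given where a call or size changes. SF3B1 in 4OHT siRBM39 ran from 223 to 443 CPM (median 422), and its fold change without these libraries is not given.

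In cells with non-targeting siRNA, transcripts of the subunits differed several-fold in level per length. On the cRPKM scale (reads per kilobase of uniquely mappable sequence, scaled to the library total), SF3B2 was the highest in DMSO siNT at 75.6 ± 3.02, above SF3B5 at 63.4 ± 3.52 and SF3B14 at 58.8 ± 1.95, 2 subunits whose libraries overlapped. SF3B4 (37.6 ± 1.11), SF3A2 (34.4 ± 2.44), SF3A1 (31.4 ± 1.41) and SF3B3 (29.1 ± 0.863) followed, each overlapping the next. SF3A3 at 25.2 ± 0.612 and PHF5A at 19.9 ± 0.955 lay lowest, without overlap with the gene before. In 4OHT siNT the order began again with SF3B2 (84.0 ± 0.741), SF3B14 (67.8 ± 4.94) and SF3B5 (67.2 ± 3.16), while SF3A2 at 24.6 ± 1.22 had moved below SF3A1 at 38.6 ± 0.926. After SF3B1 knockdown SF3B5 had the highest mean in both treatments, at 90.6 ± 6.07 in DMSO and 93.6 ± 9.35 in 4OHT, and SF3A3 the lowest, at 22.4 ± 1.67 and 15.9 ± 1.01.

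Knockdown of SF3B1 was followed by higher mRNA of the smaller SF3b subunits SF3B4, SF3B5, SF3B14 and PHF5A and of SF3A2, and by lower mRNA of SF3A1 and SF3A3. In DMSO, 8 of the 9 genes passed an adjusted p of 0.05 (edgeR's quasi-likelihood test), 6 higher and 2 lower, where 72.7% of all genes passed, 36.5% higher and 36.2% lower. In 4OHT 8 passed, 5 higher and 3 lower, where 77.0% of all genes passed, 39.4% higher and 37.6% lower. With most of the transcriptome past the threshold, the number that passed says little about these 9, and their sizes and directions are described below. The median log2 fold change of the 9 was 0.54 in DMSO and 0.39 in 4OHT, beside 0.02 and 0.03 over all genes. The 2 groups did not overlap for 5 of the genes in DMSO (54.9% of all genes) and for 9 in 4OHT (68.9%). CPM values are relative to all other transcripts, and in a bulk sample fewer cells of a kind and less RNA per cell cannot be told apart.

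SF3A2, a zinc finger subunit of SF3a at chr19:2236823-2248654 (GRCh37, plus strand), showed the largest change of the 9. Its CPM ran from 49.6 to 61.4 (median 53.2) in DMSO siNT and from 84.2 to 105 (88.6) in DMSO siSF3B1. In 4OHT it ran from 36.4 to 41.6 (38.8) in siNT and from 58.8 to 70.4 (64.1) in siSF3B1. The groups were fully separated in both treatments, with every siSF3B1 library above every siNT library. The log2 fold change was 0.75 ± 0.09 (SE; 1.68-fold, adjusted p = 1.59e-09) in DMSO and 0.72 ± 0.10 (1.65-fold, 3.91e-09) in 4OHT. Exons of PLEKHJ1 on the opposite strand share 78 bases (4.82%) with the SF3A2 transcript, and those of CCDC157 share 165 bases (3.24%) with that of SF3A1. The sources used here do not say whether counting used strand, so reads there cannot be assigned. The other 7 genes overlap no exon of another gene.

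Among the SF3b partners, SF3B4 (chr1:149895209-149899695, minus strand) changed most in DMSO. Its CPM was 71.8 to 77.9 (median 74.9) in DMSO siNT and 111 to 122 (114) in DMSO siSF3B1, and 83.0 to 94.1 (86.0) against 118 to 133 (123) in 4OHT. No library of one group entered the range of the other. Expression rose 1.55-fold in DMSO (log2 0.63 ± 0.05, adjusted p = 4.72e-16) and 1.43-fold in 4OHT (0.51 ± 0.05, 2.37e-13).

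PHF5A (chr22:41855721-41864696, minus strand) was 18.9 to 21.4 CPM (median 20.5) in DMSO siNT and 28 to 36.6 (29.2) in DMSO siSF3B1. In 4OHT it was 20.4 to 24.6 (21.5) in siNT and 31.2 to 37.6 (33.8) in siSF3B1. Every knockdown library lay above all controls of its treatment. It rose by 49.5% in DMSO (log2 0.58 ± 0.10, adjusted p = 6.28e-07) and 1.56-fold in 4OHT (0.64 ± 0.10, 6.42e-08).

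SF3B14 (chr2:24290456-24299196, minus strand) and SF3B5 (chr6:144416021-144416710, minus strand) rose by similar factors. SF3B14 went from 40.1 to 44.7 CPM (median 41.3) to 57.0 to 63.8 (61.6) in DMSO and from 43.6 to 52.6 (48.1) to 59.5 to 66.2 (63.1) in 4OHT. SF3B5, whose gene has a single exon, went from 39.4 to 46 (42.6) to 58.1 to 73.4 (61.1) in DMSO and from 43.6 to 49.1 (44.6) to 59.2 to 78.3 (66.9) in 4OHT. Both were separated from their controls in both treatments. For SF3B14 the change was 1.46-fold (log2 0.54 ± 0.05, adjusted p = 2.61e-14) and 1.31-fold (0.39 ± 0.05, 3.06e-10), and for SF3B5 1.46-fold (0.55 ± 0.11, 2.40e-05) and 1.47-fold (0.56 ± 0.11, 1.40e-05). The increases of these 4 smaller subunits and of SF3A2 passed the test with either siSF3B1 siRNA taken alone and without the libraries that stood apart.

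**Figure D1:**
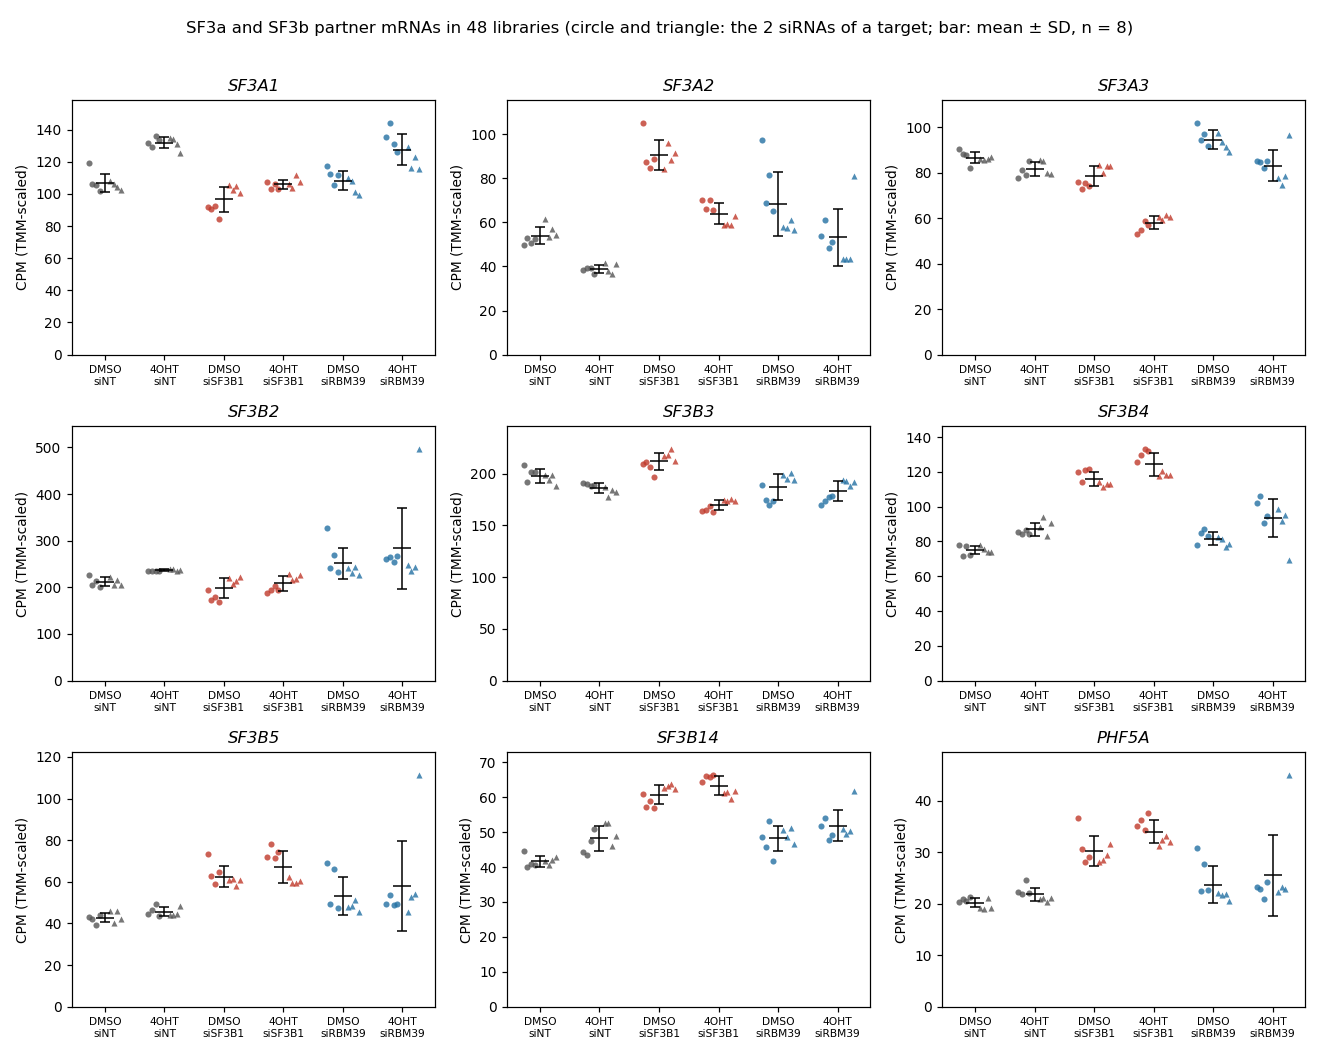
CPM of the 9 genes in each of the 48 libraries, 1 panel per gene with the 6 groups along the x axis; circles and triangles mark the 2 siRNAs of a target, and bars show the mean ± SD (n = 8). The siSF3B1 libraries of SF3A2, SF3B4, SF3B5, SF3B14 and PHF5A lie above the siNT libraries of the same treatment, those of SF3A3 in 4OHT (53.1 to 61.3) lie below, and the single high point in several 4OHT siRBM39 columns is siRBM39-08 replicate 4.

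The other 2 SF3a subunits moved the opposite way to SF3A2. SF3A3 (chr1:38422647-38455694, minus strand) was 82.2 to 90.5 CPM (median 86.5) in DMSO siNT and 73.0 to 83.4 (78.0) in DMSO siSF3B1, where the groups overlapped. In 4OHT it was 77.6 to 85.8 (80.6) in siNT and 53.1 to 61.3 (58.9) in siSF3B1, with a gap between the groups. It fell by 9.36% in DMSO (log2 −0.14 ± 0.04, adjusted p = 0.00171) and by 28.9% in 4OHT (−0.49 ± 0.04, 4.01e-15). SF3A1 (chr22:30727977-30752883, minus strand), which contacts U1 and U2 particles, fell by 9.49% in DMSO (−0.14 ± 0.04, 0.00276) and by 19.7% in 4OHT (−0.32 ± 0.04, 7.06e-09). Its libraries overlapped in DMSO (102 to 119 in siNT, 84.3 to 106 in siSF3B1) and not in 4OHT (125 to 136 against 103 to 112). With siSF3B1-16 alone the DMSO decreases of SF3A1 (−0.05, adjusted p = 0.290) and SF3A3 (−0.07, 0.158) no longer passed, whereas with siSF3B1-13 alone they were −0.26 and −0.22 and passed.

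The 2 large SF3b partners changed least. SF3B3 (chr16:70557719-70611571, plus strand) was 188 to 209 CPM in DMSO siNT and 197 to 223 in DMSO siSF3B1, but 178 to 191 against 163 to 176 in 4OHT. It rose by 7.04% in DMSO (log2 0.10 ± 0.03, adjusted p = 0.0111) and fell by 8.80% in 4OHT (−0.13 ± 0.03, 0.000702). The DMSO increase did not pass with siSF3B1-13 alone (0.05, 0.160). SF3B2 (chr11:65819835-65836779, plus strand) was the 1 gene of the 9 that did not pass in either treatment, at −0.10 ± 0.09 (0.342) in DMSO and −0.18 ± 0.09 (0.0682) in 4OHT. In 4OHT its groups nevertheless did not overlap, with 234 to 240 CPM in siNT and 189 to 228 in siSF3B1. Without the 2 libraries that stood apart, neither of them in these groups but both in the shared estimate of spread, the same −0.18 had an SE of 0.05 and passed (0.000480). The siRNAs differed in value for SF3B2, with −0.25 and −0.29 for siSF3B1-13 and 0.03 and −0.09 for siSF3B1-16 in DMSO and 4OHT, and the difference between siRNAs was not tested.

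**Figure D2:**
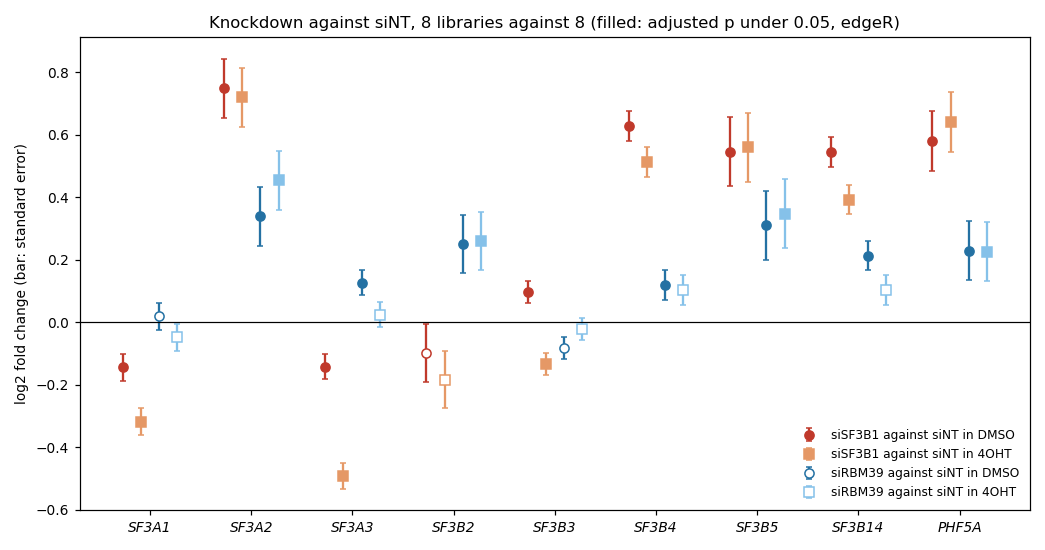
Log2 fold change (y axis) of each gene (x axis) in the 4 comparisons of a knockdown with siNT, with bars for the SE. Filled symbols passed an adjusted p of 0.05. With siSF3B1 the values run from −0.49 (SF3A3, 4OHT) to 0.75 (SF3A2, DMSO), and with siRBM39 from −0.08 (SF3B3, DMSO) to 0.45 (SF3A2, 4OHT).

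The 5 genes that rose in both treatments have at most 8 introns and the 2 that fell in both have at least 15, a property that the choice of genes did not use. SF3B3, with the most introns of the 9, rose in DMSO and fell in 4OHT. In the canonical GRCh37 transcripts SF3B5 has 0 introns, SF3B14 and PHF5A have 3, SF3B4 has 5, SF3A2 has 8, SF3A1 has 15, SF3A3 has 16, SF3B2 has 21 and SF3B3 has 25. Over the 9881 tested genes with a matched transcript (98.9%), the median log2 fold change with siSF3B1 in DMSO went from 0.31 in the 164 genes without introns, through 0.16 with 1 to 3 introns, 0.11 with 4 to 8, −0.02 with 9 to 14 and −0.17 with 15 to 25, to −0.35 above that. In 4OHT the medians were 0.47, 0.22, 0.15, −0.05, −0.21 and −0.45. Set against genes of the same class, SF3A2 stood at the 94.3rd percentile in DMSO and the 88.8th in 4OHT, SF3B4 at the 89.9th and 79.5th, PHF5A at the 85.8th and 83.1st, SF3B14 at the 84.6th and 66.8th and SF3B5 at the 79.3rd and 59.8th. Of the genes with many introns, SF3B3 stood at the 70.1st and 54.8th percentile, SF3B2 at the 54.8th and 51.9th, SF3A1 at the 51.9th and 44.1st and SF3A3 at the 51.9th and 33rd. Whether intron number has a part in these changes was not tested.

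**Figure D3:**
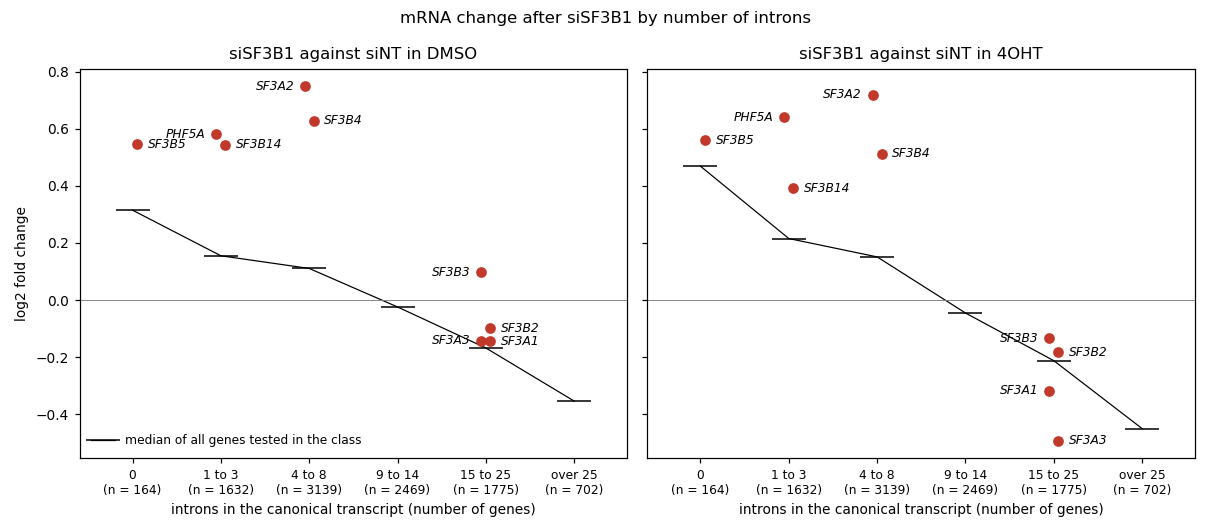
Log2 fold change with siSF3B1 (y axis) against classes of intron number (x axis), in DMSO and in 4OHT; points are the 9 genes and the line joins the medians of all tested genes of each class. In DMSO the class medians fall from 0.31 to −0.35, and SF3A2, SF3B4, PHF5A, SF3B14 and SF3B5 lie above the line of their class in both treatments.

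The siSF3B1 response of 3 genes differed between treatments by the interaction test, in each case lower in 4OHT than in DMSO, where 37.8% of all genes passed and 19.9% passed as lower. The difference was −0.35 ± 0.06 (log2, adjusted p = 2.61e-06) for SF3A3, −0.23 ± 0.05 (0.000191) for SF3B3 and −0.17 ± 0.06 (0.0205) for SF3A1. SF3A3 and SF3B3 passed with either siRNA pair, while SF3A1 did not with siSF3B1-13 alone (−0.08, 0.219). Without the libraries that stood apart, SF3B14 (−0.15, 0.0257) and SF3B4 (−0.12, 0.0410) passed as well. The differences for PHF5A (0.06 ± 0.13), SF3B5 (0.01 ± 0.16), SF3A2 (−0.03 ± 0.13) and SF3B2 (−0.09 ± 0.13) were smaller than their SE.

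After knockdown of RBM39, SF3A2 rose most of the 9 genes. In DMSO 7 genes passed, all higher (46.1% of all genes passed in either direction and 23.9% higher), and in 4OHT 4 genes passed, all higher (56.4% and 32.2%). The median log2 fold change of the 9 was 0.21 in DMSO and 0.10 in 4OHT. The groups were separated for 0 of the 9 in DMSO (20.5% of all genes) and for 1, SF3A2, in 4OHT (25.1%). By other tools 8 genes passed in DMSO (limma-voom and DESeq2 alike), and 3 with limma-voom and 6 with DESeq2 in 4OHT.

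SF3A2 had the largest change of the 9. Its CPM was 56.6 to 97.5 (median 63.3) in DMSO siRBM39, overlapping the 49.6 to 61.4 of siNT, and 43.2 to 80.9 (49.8) in 4OHT siRBM39, above the 36.4 to 41.6 of siNT in 8 of 8 libraries. It rose 1.26-fold in DMSO (log2 0.34 ± 0.09, adjusted p = 0.00279) and 1.37-fold in 4OHT (0.45 ± 0.09, 7.24e-05), and by 0.25 (0.00164) and 0.34 (2.28e-05) without the libraries that stood apart. SF3B5 (0.31 and 0.35), SF3B2 (0.25 and 0.26) and PHF5A (0.23 and 0.23) passed in both treatments. Without the libraries that stood apart, these 3 still passed in DMSO, at 0.25, 0.19 and 0.17. The siRBM39-06 libraries that remained in DMSO lay at 2.36, 2.40 and 2.65 times the median distance, under the limit of 3. Of these, replicate 3 was also high, with 66.0 CPM of SF3B5 against 49.6 and 47.4 in replicates 2 and 4. Without 4OHT siRBM39-08 replicate 4 the 4OHT values were 0.15 (0.0670) for SF3B5, 0.10 (0.153) for SF3B2 and 0.06 (0.390) for PHF5A, and none of these 3 passed, while SF3B4 at 0.15 (0.000229) did. With the other library that stood apart also left out, SF3B5 at 0.15 passed (0.0372). 4OHT siRBM39-08 replicate 4 held 111 CPM of SF3B5, 496 of SF3B2 and 44.9 of PHF5A, against at most 54.0, 266 and 24.1 in the other 7.

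In DMSO the siRBM39 values also depended on the siRNA. With siRBM39-06 alone 8 genes passed, among them SF3A2 at 0.53 and SF3B5 at 0.44 higher and SF3B3 at −0.16 lower. With siRBM39-08 alone only SF3B14 passed, at 0.24 (adjusted p = 0.000350), and SF3A2 was at 0.11 (0.395). SF3B14 passed with both siRNAs in DMSO, where its CPM was 41.9 to 53.3 (median 48.6) against 40.1 to 44.7 in siNT (0.21 ± 0.05, 0.000203). SF3A3 (0.13, 0.00849) and SF3B4 (0.12, 0.0355) were the remaining genes that rose in DMSO. SF3A1 did not pass in either treatment (0.02 and −0.05), nor did SF3B3 (−0.08 and −0.02), although without the libraries that stood apart SF3B3 passed as lower in DMSO (−0.08, 0.0359). The response to siRBM39 did not pass as different between treatments for any of the 9 (0 with edgeR, limma-voom and DESeq2, and 0 at an unadjusted p under 0.05; 14.1% of all genes passed), but with siRBM39-06 alone it did for SF3B2 (−0.19), SF3B5 (−0.29) and PHF5A (−0.29).

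Compared directly, the 2 knockdowns differed in 8 of the 9 genes in each treatment (67.7% and 71.4% of all genes passed), 5 higher and 3 lower after siSF3B1 in DMSO (33.6% and 34.1% of all genes) and 4 and 4 in 4OHT (33.7% and 37.7%), and in 4 of them the groups did not overlap (35.6% and 38.9%). SF3B4 was higher after siSF3B1 than after siRBM39 by 0.51 in DMSO and 0.41 in 4OHT, SF3A2 by 0.41 and 0.27, PHF5A by 0.35 and 0.41 and SF3B14 by 0.33 and 0.29. SF3A3 differed by −0.27 and −0.52, SF3B2 by −0.35 and −0.44 and SF3A1 by −0.16 and −0.27. SF3B3 differed by 0.18 in DMSO and −0.11 in 4OHT. SF3B5 was the gene that did not pass (0.23 ± 0.11, adjusted p = 0.0552, and 0.21 ± 0.11, 0.0802). Without the libraries that stood apart, all 9 genes passed in both treatments. SF3B5 was then higher after siSF3B1 by 0.30 in DMSO (3.79e-05) and 0.41 in 4OHT (9.90e-08), PHF5A by 0.41 and 0.58, SF3A2 by 0.50 and 0.38, while SF3B2 differed by −0.28 in each.

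Between 4OHT and DMSO in siNT cells, SF3A1 and SF3A2 moved in opposite directions. All libraries carry the ER:RAS fusion, so 4OHT itself, RAS signalling and senescence cannot be told apart here. SF3A1 rose from 102 to 119 CPM (median 106) in DMSO to 125 to 136 (133) in 4OHT, and SF3A2 fell from 49.6 to 61.4 (53.2) to 36.4 to 41.6 (38.8), both without overlap. The log2 differences were 0.31 ± 0.04 (1.24-fold, adjusted p = 1.38e-08) and −0.48 ± 0.09 (a decrease of 28.1%, 1.54e-05). SF3B4 (0.21 ± 0.05, 8.64e-05) and SF3B14 (0.21 ± 0.05, 7.02e-05) rose, and SF3B3 fell slightly (−0.09 ± 0.03, 0.0199). In all 5 of the 9 passed (78.1% of all genes), 3 higher (39%) and 2 lower (39.1%), and the groups did not overlap for 4, SF3A1, SF3A2, SF3B2 and SF3B4 (71.4%). SF3B2 (0.16 ± 0.09, 0.110), PHF5A (0.11, 0.296) and SF3A3 (−0.08, 0.0513) did not pass, although all 3 did without the libraries that stood apart (0.00188, 0.0495 and 0.0200), and SF3B5 passed in neither (0.09, 0.455). Over all 6 groups the highest mean of SF3A2 was in DMSO siSF3B1 (90.8 ± 6.85) and its lowest in 4OHT siNT (38.8 ± 1.89), whereas SF3A3 was highest in DMSO siRBM39 (94.6 ± 4.02) and lowest in 4OHT siSF3B1 (58.1 ± 2.92).

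Splicing of the same transcripts was measured as per cent spliced-in (PSI), the percentage of reads that include an exon or retain an intron. Of the 172 events (75 exons, 83 introns and 14 alternative splice sites), 159 had a PSI in every library, 137 also reached the coverage score VLOW, and 31 passed all filters (13 exons, 17 introns and 1 alternative splice site). These lay in SF3B3 (12), SF3B2 (9), SF3A1 (6), SF3A2 (2) and SF3A3 (2). None of the 6 events of SF3B4, 3 of SF3B14 and 4 of PHF5A passed, and SF3B5 has none annotated. Because the filters ask for a PSI range of at least 5 points over the 48 libraries, events that stay near 0 or 100 everywhere are not among the 31.

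The tested exons and the tested intron with the largest changes are printed here from the GRCh37 genome. The 3′ splice sites of the exons and both splice sites of the intron can be read from them. They were found in GRCh37 by gene and by length, since the event table's own coordinates lie in another build. Each is written 5′ to 3′ on the strand of the gene, with exon bases in capitals and intron bases in lower case, and each exon is preceded by the last 40 intron bases, where the branch site and the polypyrimidine tract lie.
SF3A2 intron 3 with 20 exon bases on each side, chr19:2244595-2244751, plus strand: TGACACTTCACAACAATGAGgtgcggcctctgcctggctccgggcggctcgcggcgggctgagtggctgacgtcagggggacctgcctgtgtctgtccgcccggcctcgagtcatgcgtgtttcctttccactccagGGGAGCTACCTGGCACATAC
SF3B3 exon 8, chr16:70572967-70573110, plus strand: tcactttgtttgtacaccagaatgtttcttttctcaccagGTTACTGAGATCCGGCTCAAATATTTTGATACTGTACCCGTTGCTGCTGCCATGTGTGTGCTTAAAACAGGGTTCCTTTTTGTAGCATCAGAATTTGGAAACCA
SF3B3 exon 9, chr16:70575532-70575737, plus strand: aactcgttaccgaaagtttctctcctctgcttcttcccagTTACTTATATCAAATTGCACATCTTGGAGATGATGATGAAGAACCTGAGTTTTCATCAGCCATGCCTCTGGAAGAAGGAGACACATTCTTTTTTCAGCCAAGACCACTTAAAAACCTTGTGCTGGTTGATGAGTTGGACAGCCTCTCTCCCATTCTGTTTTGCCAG
SF3A3 exon 12, chr1:38442556-38442665, minus strand: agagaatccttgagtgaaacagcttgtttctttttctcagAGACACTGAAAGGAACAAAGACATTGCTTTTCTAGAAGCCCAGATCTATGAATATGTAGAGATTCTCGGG
SF3B2 exon 15, chr11:65829117-65829246, plus strand: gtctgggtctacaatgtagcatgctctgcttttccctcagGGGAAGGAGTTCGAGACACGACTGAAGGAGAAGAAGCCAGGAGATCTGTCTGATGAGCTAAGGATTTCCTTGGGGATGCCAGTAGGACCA

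Knockdown of SF3B1 lowered inclusion of exons in SF3B3, SF3A3 and SF3B2 and raised retention of introns in SF3A2 and SF3B3. In DMSO 5 of 13 exons were called lower (25.7% of all exons tested; adjusted p under 0.05 and at least 5 points) and 1 of 17 introns higher (10.8% of all introns). In 4OHT 5 exons were called lower (29%) and 3 introns higher (14.7%). None was called in the opposite direction. The filter on PSI range counts the siSF3B1 libraries too, and an exon near 100 or an intron near 0 in siNT can move in 1 direction only, so these counts are a description. Of all events tested, 1.04% of exons were called in the opposite direction in each treatment, and 0.343% and 0.21% of introns in DMSO and 4OHT. The 1 alternative splice site tested was called in no comparison with siNT, where 10.4% of such sites were called with siSF3B1 in either treatment and 5.97% and 4.53% with siRBM39.

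The largest differences were in 2 neighbouring coding exons of SF3B3. PSI of exon 8 (104 nt, chr16:70573007-70573110) was 95.2 to 100 (median 100) in DMSO siNT and 68.2 to 87.2 (84.0) in DMSO siSF3B1. In 4OHT it was 97.5 to 100 (100) in siNT and 54.5 to 81.5 (72.4) in siSF3B1. All 8 knockdown libraries lay below all controls in both treatments. The mean difference was −17.3 ± 2.35 points (SE) in DMSO and −28.5 ± 3.40 in 4OHT, with an exact permutation p of 0.000155 in each (two-sided, the smallest that 8 against 8 libraries can give, 0.000483 after adjustment over 28 comparisons) and limma adjusted p of 2.24e-10 and 1.79e-14. Between 50 and 150 reads per library lay behind these siSF3B1 values. The named events were picked by called differences in these same libraries, so exact p-values here and below give no independent support. Adjustment over 28 comparisons does not cover that choice.

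Exon 9 of SF3B3 (166 nt, chr16:70575572-70575737) followed the same pattern. It was at 98.2 to 100 in DMSO siNT and 76.7 to 92.7 (median 86.5) in DMSO siSF3B1, and at 93.5 to 100 against 55.3 to 86.5 (75.0) in 4OHT, without overlap. The differences were −14.2 ± 2.16 and −23.5 ± 3.85 points, again with an exact p of 0.000155 each. The lengths of exons 8 and 9 leave remainders of 2 and 1 when divided by 3, so skipping either alone shifts the reading frame. Skipping both together would keep the frame, and whether they were skipped together was not tested. Exon 23 of SF3B3 (99 nt, chr16:70602946-70603044), chosen after its values were seen, fell from 100 in all siNT libraries to a mean of 94.8 ± 5.18 in DMSO and 94.7 ± 4.62 in 4OHT (limma adjusted p = 0.000148 and 8.99e-05). The 6 remaining SF3B3 exons were lower by 1.02 to 2.92 points in DMSO and by 0.564 to 3.26 points in 4OHT, and none was called.

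SF3A3 exon 12 (70 nt, chr1:38442556-38442625), which is not a multiple of 3, was 97.2 to 100 (median 100) in DMSO siNT and 88.6 to 98.2 (91.0) in DMSO siSF3B1. In 4OHT the ranges were 94.0 to 100 (97.6) and 80.6 to 97.7 (89.1). The groups overlapped in both treatments. The differences were −7.08 ± 1.16 points (exact permutation p = 0.000466) and −8.52 ± 2.38 points (0.00264).

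SF3B2 exon 15 (90 nt, chr11:65829157-65829246), a multiple of 3, was listed at 100 in all 16 siNT libraries and at 91.5 to 96.8 in DMSO siSF3B1 and 89.3 to 100 in 4OHT siSF3B1. The differences were −6.09 ± 0.648 points (exact permutation p = 0.000155) and −6.03 ± 1.52 points (0.00699), with overlap in 4OHT only. In 4OHT the difference was below the 5-point minimum with siSF3B1-16 alone (−3.92) and without replicate 4 (−4.70).

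Of the tested introns, intron 3 of SF3A2 (117 nt, GC content 70.1%, chr19:2244615-2244731) had the largest increase in retention. Its PSI was 0 to 2.48 (median 0.375) in DMSO siNT and 7.14 to 13.5 (10.1) in DMSO siSF3B1, and 0 to 4.42 (0.55) against 8.33 to 24.8 (17) in 4OHT. Knockdown and control libraries were separated in both treatments. Retention was higher by 9.79 ± 0.792 and 15.2 ± 2.00 points (exact permutation p = 0.000155 in each), from 51 to 152 reads per siSF3B1 library. Read in frame from the upstream exon, the intron has a stop at codon 14. Among the 9 genes, SF3A2 had both the largest increase in mRNA and the largest increase in retention of a tested intron.

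Intron 7 of SF3A2 (571 nt, chr19:2247022-2247592) rose from 0.435 ± 0.437 to 4.84 ± 1.32 in DMSO, which is below the 5-point minimum, and from 0.663 ± 0.997 to 7.08 ± 2.49 in 4OHT, where it was called (exact permutation p = 0.000155 in each). Introns 5 (1197 nt) and 6 (79 nt) of SF3A2, named after their values were seen, each failed the balance filter in 1 library and were not tested. Their mean PSI was 4.03 and 5.22 in DMSO siNT, 16.1 and 10.6 in DMSO siSF3B1, 4.87 and 3.60 in 4OHT siNT and 23.5 and 10.7 in 4OHT siSF3B1. Intron 23 of SF3B3 (864 nt, chr16:70603045-70603908), directly after exon 23, rose by 5.76 ± 1.28 points in 4OHT, from 0.271 ± 0.767 to 6.03 ± 3.53 (exact permutation p = 0.000311), and its 4.26 ± 0.852 points in DMSO were below the minimum. The 4OHT value also dropped below it with siSF3B1-13 alone (4.33) and without replicate 3 (4.87). Uncalled introns differed by −0.248 to 3.17 points in SF3B2 and 0.329 to 2.19 in SF3A1 in DMSO, and by 0.716 to 4.73 and 0.194 to 2.97 in 4OHT.

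**Figure D4:**
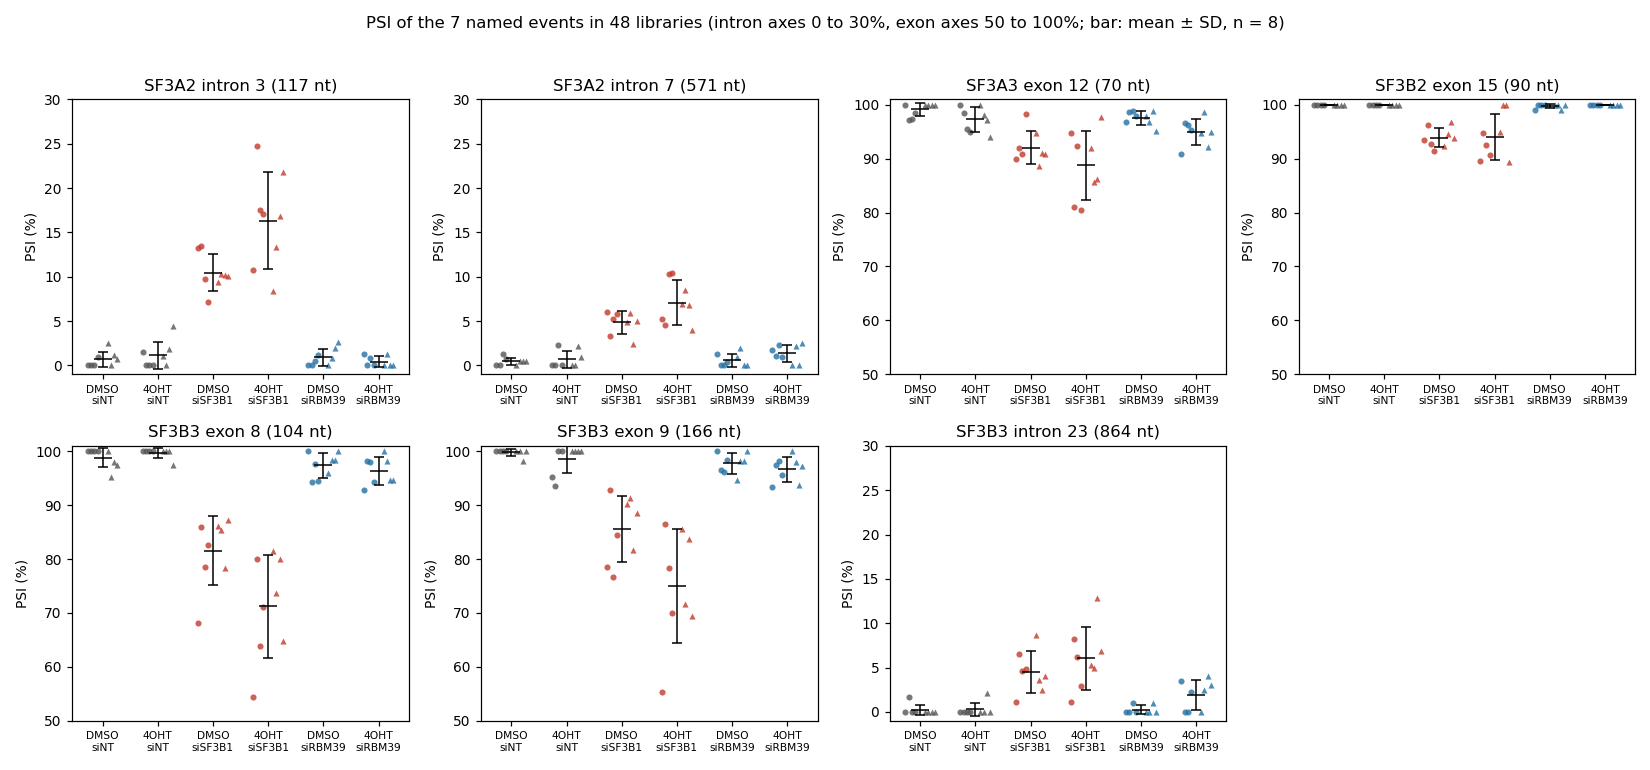
PSI in per cent of the 7 named events in each library, by group; bars show the mean ± SD (n = 8), intron axes run from 0 to 30 and exon axes from 50 to 100. In SF3B3 exons 8 and 9 and SF3A2 intron 3 the siSF3B1 libraries are separated from siNT in both treatments, and the siRBM39 libraries lie beside siNT.

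With siRBM39 no event of the 9 genes was called (0 with limma on the logit scale and 0 on the percent scale; 2 in DMSO and 4 in 4OHT at an unadjusted p under 0.05), where 8.26% and 9.34% of all exons and 2.06% and 2.08% of all introns were called. The largest difference was again in SF3B3 exon 8, at 92.8 to 100 in 4OHT siRBM39 against 97.5 to 100 in siNT (−3.35 ± 0.951 points, exact permutation p = 0.00513, limma adjusted p = 0.00164), below the minimum of 5. SF3A2 intron 3 stayed between 0 and 2.63 after siRBM39 in DMSO and between 0 and 1.28 after it in 4OHT, overlapping siNT in both treatments. Between the knockdowns, 5 events were called in DMSO and 7 in 4OHT, all with lower exon or higher intron PSI after siSF3B1, where 20.4% and 23.2% of all exons were called lower and 8.38% and 11.5% of all introns higher.

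The comparison of 4OHT with DMSO in siNT cells called no event (0 with limma on the logit scale and 0 on the percent scale). At an unadjusted p under 0.05 there was 1 event, and the largest difference was 1.85 points. Of all events, 1.60% of exons and 0.0953% of introns were called. The siSF3B1 effect did not pass as different between treatments for any event on the logit scale (2 at an unadjusted p under 0.05; 0.613% of all exons and 0.0191% of introns were called). On the percent scale 1 passed, SF3B3 exon 8, whose decrease was 11.2 points larger in 4OHT (adjusted p = 0.0472). For siRBM39 the same comparison called 0 events (0 at an unadjusted p under 0.05 and 0 on the percent scale), beside 0.0391% of all exons and 0.0% of introns.

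Other proteins of the U2 particle and of branch site recognition did not share a direction. Of 16 such genes, all tested, 8 rose and 8 fell with siSF3B1 in DMSO, and 7 rose and 7 fell in 4OHT, with a median log2 change of 0.00 in each, where 36.5% and 36.2% of all genes rose and fell in DMSO and 39.4% and 37.6% in 4OHT. DDX46, the helicase that acts with SF3b on U2 (2.45-fold and 2.19-fold), and SNRPB2, a U2-specific protein (1.60-fold and 1.61-fold), rose most in DMSO and 4OHT. DDX42, an SF3b-associated helicase, fell most in both (log2 −1.30 and −1.63), followed by U2SURP in DMSO (−0.82) and SNRPA1, the other U2-specific protein, in 4OHT (−1.48). With siRBM39, 10 rose and 0 fell in DMSO (median 0.18) and 8 rose and 2 fell in 4OHT (0.10), where 23.9% and 32.2% of all genes rose and 22.2% and 24.3% fell. They were led by SF1, the branch point binding protein (0.54 and 0.64).

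In the U11/U12 particle, which also holds SF3b, 7 of 8 listed genes were tested, and the shares of all genes just given hold as background here too. With siSF3B1 3 rose and 2 fell in DMSO and 4 rose and 2 fell in 4OHT, with SNRNP25 (0.44 and 0.80) among those that rose and SNRNP35 (−0.70 and −0.36) and SNRNP48 (−0.50 and −0.76) those that fell. With siRBM39 the counts were 2 and 1 in DMSO and 3 and 1 in 4OHT, with RNPC3 (0.48 and 0.76) higher and SNRNP48 (−0.78 and −0.69) lower. Of 18 SAGA genes 16 were tested, of which 6 rose and 6 fell in DMSO and 7 rose and 4 fell in 4OHT with siSF3B1, TADA1 rising most in 4OHT (1.13) and TAF9 falling most (−0.57). With siRBM39 2 rose and 6 fell in DMSO and 5 rose and 5 fell in 4OHT. ZRSR2 of the U11/U12 list and SUPT3H and SGF29 of the SAGA list had fewer than 10000 counts in total and were not tested.

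Across the 48 libraries the smaller subunits varied together in log2 CPM. Pearson's r was 0.95 between SF3B5 and PHF5A, 0.85 between SF3B14 and PHF5A and 0.85 between SF3B4 and SF3B14 (0.94, 0.89 and 0.93 over the 46 libraries without those that stood apart). It was lower between SF3B5 and SF3B14 (0.80), SF3B4 and PHF5A (0.68) and SF3B4 and SF3B5 (0.56). Over the 46 libraries these pairs were at 0.88, 0.91 and 0.88. SF3A2 and SF3A1 ran against each other (−0.72), as did SF3A3 and SF3B4 (−0.78). All points share the 6 groups, so these values describe group differences as well as library scatter. The tested gene most like each in this measure was EIF4G1 for SF3A1 (r = 0.94), KAT5 for SF3A2 (0.97), APOL2 for SF3A3 (0.96), FAM3A for SF3B2 (0.94), HAX1 for SF3B3 (0.85), TMEM85 for SF3B4 (0.97), MRPL54 for SF3B5 (0.96), SAP18 for SF3B14 (0.95) and TARBP2 for PHF5A (0.96). Without the libraries that stood apart the nearest gene stayed the same for SF3A1 and SF3A2 and changed for the other 7.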

How the data were processed

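RNA-seq libraries from 48 samples in 6 groups were analysed, grouped from the sample labels. In 4 siNT2 libraries the treatment label names siNT1, which leaves the group as it is. Per the labels the processing used hg19, edgeR and limma, and per the methods the authors aligned single-end reads with vast-tools to the VAST-DB annotation. The authors deposited raw counts per gene, beside cRPKM values, an RPKM corrected for mappability. They also deposited PSI as a percent per event with its quality string, a text holding coverage scores, reads and a balance p-value. A deposited table of TMM-scaled CPM was not used. Genome coordinates of the event table lie in GRCh38, so features were placed in GRCh37 from the GENCODE annotation.

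The 9991 genes whose counts summed to 10000 or more were fitted with edgeR 4.0.16 (glmQLFit, glmQLFTest; TMM scaling, 1 mean per group) in R 4.3.3, with Benjamini-Hochberg adjustment over all of them. CPM is the count scaled to the TMM-adjusted library total. 338 genes had no counts. An event was kept where all libraries scored VLOW or better for coverage and PSI spanned 5 points or more. Introns also needed a balance p no lower than 0.05 throughout. PSI fractions were squeezed to 0.01 plus 0.98 of the value, logit-transformed and fitted with limma 3.58.1 within each event class, and calls needed an adjusted p under 0.05 and 5 points. Named events were also compared by two-sided exact permutation over 12870 splits. Standing apart means a distance over 3 times the median. Likeness used log2(CPM + 1). limma-voom, DESeq2 1.42.0, other filters and subsets of libraries were alternatives. Other steps used Python 3.11.15, NumPy 2.4.6, pandas 2.3.3, SciPy 1.17.1, matplotlib 3.10.9 and pysam 0.24.0.

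On simulated counts with 200 changed genes among 9991 (siSF3B1 against siNT in 4OHT), edgeR recovered 176 with 12 false calls. In the data 77.0% of genes passed in that comparison, a setting that this simulation does not cover. For exons in the same comparison, limma on logit PSI recovered 191 of 200 changed events among 7673 with 2 false calls. The changed exons were drawn only from those whose mean PSI lay away from both ends of the scale, and introns were not included. This recovery therefore does not show how well changes are found near either end of the PSI scale, where the named events start in siNT. The 72 pairs of libraries with the same siRNA and treatment differed by more than sampling noise (the lowest chi-square was 2.00 per degree of freedom). The genes and lists were chosen with earlier results of these data known. All 9 genes were named, with the 1 gene most like each and, per gene, up to 3 called events by largest difference. From each list the genes that changed most in each direction were named. Lists were described by counts, with no test of a list, no set test and no test between the siRNAs of a target.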

Additional observations from a re-analysis of the deposited data

Results flagged for a closer look

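Among 96 sets of 8 libraries (a gene's CPM or a named event's PSI in 1 group), 17 (17.7%) had a highest or lowest library far from the other 7 by Dixon's criterion (a large gap relative to the range), which chance gives in about 1 of 20. 4OHT siRBM39-08 replicate 4 accounted for 5 of them, with 495.577 CPM of SF3B2 (others 235 to 266), 111.129 of SF3B5 (45.4 to 54.0), 44.8922 of PHF5A (21 to 24.1), 61.7976 of SF3B14 (47.7 to 54.0) and, as the lowest, 69.1957 of SF3B4 (90.4 to 106). DMSO siRBM39-06 replicate 1 held 327.846 CPM of SF3B2 (others 226 to 269). DMSO siSF3B1-13 replicate 1 held 73.4129 CPM of SF3B5 (58.1 to 64.6), 36.6339 of PHF5A (28 to 31.5) and a PSI of 68.18 for SF3B3 exon 8 (78.4 to 87.2).

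In control groups, DMSO siNT1 replicate 1 held 119.185 CPM of SF3A1 (others 102 to 108) and 4OHT siNT1 replicate 3 held 24.5854 of PHF5A (20.4 to 22.4). PSI of SF3A2 intron 3 was 2.48 in DMSO siNT2 replicate 1 (others 0 to 1.12) and 4.42 in 4OHT siNT2 replicate 4 (0 to 1.82), and SF3B3 exon 8 was 97.5 in that last library, where the other 7 were at 100. SF3B3 exon 9 was 98.2 in DMSO siNT2 replicate 3 with the others at 100. SF3B3 intron 23 was 1.69 in DMSO siNT1 replicate 2 and 2.17 in 4OHT siNT2 replicate 3 with the others at 0. A set in which 7 libraries are equal meets the criterion with any different value in the last.

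The siSF3B1 response of SF3A1 (−0.17, adjusted p = 0.0205), SF3A3 (−0.35, 2.61e-06) and SF3B3 (−0.23, 0.000191) was lower in 4OHT than in DMSO by the interaction test.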

How the results depend on the processing

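No log2 change or PSI difference called for the 9 genes turned its direction under any alternative. Of the single-gene log2 values under alternatives, 661 kept their side of the threshold, 71 lost a call and 36 gained one, and of the single-event PSI differences 481, 11 and 4. With a minimum of 1.5-fold, 2 genes passed with siSF3B1 in DMSO (SF3A2 and SF3B4) and 2 in 4OHT, and 0 passed with siRBM39 in either treatment, with 4OHT in siNT, in the siSF3B1 interaction or between the knockdowns. With siRBM39 in DMSO 1 gene passed with siRBM39-08 alone, 2 with siNT1 alone and 1 with siNT2 alone, and in 4OHT 2 with siNT1, 1 with siNT2 and 2 without 4OHT siRBM39-08 replicate 4. Without that library 5 genes passed in the siSF3B1 interaction and 1, SF3A3, in the siRBM39 interaction (3 with siRBM39-06 alone). Without both libraries that stood apart, an alternative chosen after seeing the data, 8 passed with 4OHT in siNT and 5 in the siSF3B1 interaction.

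Leaving out each replicate number in turn gave 7 to 8 genes with siSF3B1 in DMSO and 8 to 9 in 4OHT, 2 to 7 and 2 to 4 with siRBM39, 4 to 6 with 4OHT in siNT, 2 to 3 and 0 in the interactions and 8 to 9 and 7 to 9 between the knockdowns. For events it gave 5 to 6 and 7 to 8 with siSF3B1, 4 to 6 and 5 to 7 between the knockdowns and 0 elsewhere. With siRBM39 in DMSO the call of SF3A2, the largest, held without each number, while SF3B2, SF3B5 and PHF5A lost theirs without number 1, 2 or 3.

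With no minimum difference, 19 and 24 events passed with siSF3B1 in DMSO and 4OHT, 1 and 1 with siRBM39 and 17 and 21 between the knockdowns, and with a minimum of 10 points 2 and 3, and 2 and 3 between the knockdowns. With a LOW coverage score 3 passed between the knockdowns in DMSO. With PSI in percent 1 passed in the siSF3B1 interaction.

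Same-numbered libraries were about as alike as others, with a median correlation of deviations of 0.010 over 264 same-numbered pairs (−0.907 to 0.818). Pairs with other numbers had a median of −0.0006 over 792 pairs (−0.909 to 0.938). Single pairs varied widely, and structure shared across other numbers was not tested. With a replicate block the counts were the same in every comparison, 8 and 8 genes with siSF3B1, 7 and 4 with siRBM39, 5 with 4OHT, 3 and 0 in the interactions and 8 and 8 between the knockdowns, and 6, 8, 0, 0, 0, 0, 0, 5 and 7 events. Depth limits the precision of the PSI values named, which rest on 28 to 323 reads per library. A PSI of 0 or 100 there means that no such read was seen, and intervals of any kind would cover counting error only.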
